A study of Artemisia argyi with 3 samples.

Results

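Leaf and stem of mature *A. argyi*, an aromatic mugwort of the Asteraceae, were compared over every unigene of the deposited expression table, that is, over 88,591 of the 88,591 transcripts listed there. Each tissue was represented by 1 library, made from tissue pooled from 5 plants of an herb garden, and the 2 libraries used here are 2 of the 3 in the series, the other being root. No treatment was applied, and the labels give species, mature stage and tissue only. With 1 library per tissue there was no replicate and no test, so every fold below compares a pair of libraries and not a pair of tissues with a known spread. A lower content of a cell type and less RNA per cell cannot be told apart in such bulk samples.

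The expression unit is FPKM, fragments per kilobase of unigene scaled by the mapped fragments of the library. Unigenes named CL are contigs that the assembly grouped into a cluster by sequence similarity, such as alleles, splice forms or close paralogues, and the others are singletons. The table pairs no identifier with a gene name, and only the 7 unigenes whose cloning the methods describe are named here as enzymes. Leaf and stem marker genes could therefore not be looked up, and the tissue labels were not checked against them.

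Leaf and stem share the green shoot's basic programme. Leaf blades are dominated by photosynthetic cells and carry the glandular hairs in which mugworts store volatile terpenoids, whereas stems add vascular and supporting tissue with lignified walls. In both, the terpenoid precursors come from the cytosolic mevalonate pathway and from the plastid MEP pathway.

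The depth of the libraries was similar, and the paper lists nearly equal numbers of clean reads for leaf and stem. The FPKM values summed to 745,319 in leaf and 732,443 in stem, which does not measure depth because FPKM is already scaled by it. Stem had values above 0 for more unigenes, 66,770 against 61,228 in leaf. A total of 52,291 unigenes were above 0 in both tissues, 8,937 were above 0 in leaf and listed at 0 in stem, 14,479 were above 0 in stem and listed at 0 in leaf, and 12,884 had 0 in leaf and stem alike. The values listed opposite a 0 were low as a rule, the median being 0.76 FPKM in leaf and 0.89 in stem. Between 0.2 and 0.5 FPKM, where a unigene has few fragments and its FPKM moves in steps, 54.0% of 1,231 unigenes had leaf and stem values within 0.06 of each other on the log2 scale, and the most frequent ratio of leaf to stem was 1.04. At equal depth the same number of fragments gives the same FPKM, so the depths differed little. The number of fragments behind each value is unknown, and no counting interval is given.

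Taken over the whole table, leaf and stem were balanced. Among the 75,707 unigenes above 0 in leaf or stem, the median log2 ratio of leaf to stem, after adding 1 to each FPKM, was -0.037, with quartiles of -0.78 and 0.64. Without the added 1, over the 52,291 unigenes above 0 in both, it was 0.054, with quartiles of -0.97 and 1.02. Of the 14,421 unigenes above 10 FPKM in either tissue, 7,530 (52.2%) differed by less than 2-fold. In this set leaf exceeded stem by 2-fold or more for 3,236 unigenes (22.4%), and stem exceeded leaf by as much for 3,655 (25.3%).

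The ratio depended on the expression level. In bins of the mean FPKM of leaf and stem, the median log2 ratio was -0.21 for the 16,940 unigenes above 0 and up to 0.5 FPKM, -0.049 between 1 and 2 FPKM, 0.10 between 5 and 10, 0.050 between 10 and 50, 0.15 between 50 and 100, 0.26 between 100 and 500 and 0.33 for the 112 unigenes above 500. The 95% order-statistic interval of the median, which covers the sampling of unigenes and not the variation between plants, was 0.17 to 0.39 between 100 and 500 FPKM and -0.023 to 0.72 above 500. By these medians scarce unigenes leaned slightly to stem and abundant ones to leaf. Without the added 1, over unigenes above 0 in both tissues, the median was 0 up to 0.5 FPKM, 0.027 between 0.5 and 1 and 0.036 between 1 and 2, so the lean of scarce unigenes to stem was absent once listed zeros were left out. The low bins held most of the listed zeros. In the lowest bin 79.9% of the unigenes were listed at 0 in leaf or stem, against 6.48% between 2 and 5 FPKM and 0.70% between 10 and 50.

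The spread did not narrow at high expression. The interquartile range of the log2 ratio was 1.43 between 5 and 10 FPKM, 1.48 between 10 and 50, 1.59 between 50 and 100, 1.86 between 100 and 500 and 1.85 above 500. Without the added 1, and over unigenes above 0 in both tissues, it was 2.52 between 0.5 and 1 FPKM, 1.60 between 5 and 10 and 1.87 between 100 and 500. The abundant unigenes thus differed between the libraries at least as widely as those of middle level.

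The tails were unequal, and to the other side from the medians. Between 10 and 50 FPKM the 5th percentile of the log2 ratio was -3.53 and the 95th percentile 2.04. Between 100 and 500 FPKM they were -3.38 and 2.23. The share of unigenes at least 8-fold higher in stem was 7.93% between 5 and 10 FPKM, 7.99% between 10 and 50, 7.78% between 50 and 100 and 6.81% between 100 and 500. The corresponding shares for leaf were 2.57%, 2.09%, 2.43% and 2.07%. Large differences in favour of stem were therefore about equally frequent over this whole range of expression.

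**Figure D1:**
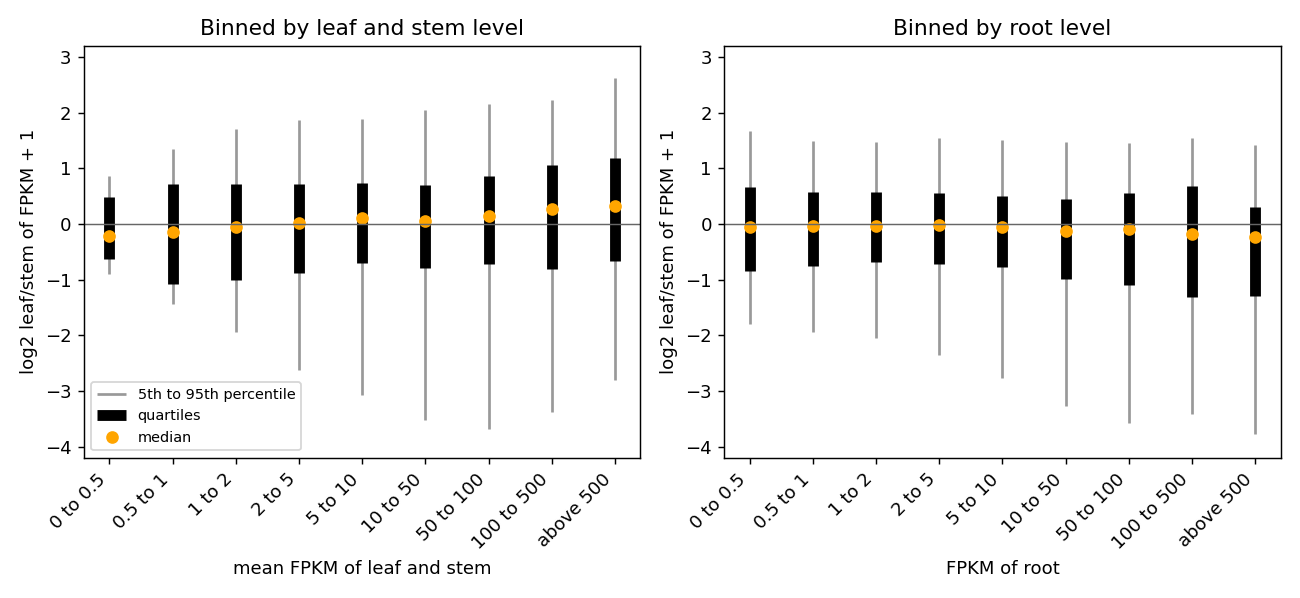
Log2 ratio of leaf to stem (FPKM + 1) in bins of expression level, with the median (point), quartiles (thick bar) and 5th to 95th percentile (thin line) over unigenes. On the left, with bins of the mean FPKM of leaf and stem, the median moves from -0.21 to 0.33. On the right, with bins of the root FPKM and unigenes at 0 in root left out, it stays below 0 in every bin. Without the added 1 it is above 0 in the root bins up to 5 FPKM.

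The lean of abundant unigenes to leaf turned when the level was taken from root, which does not enter the ratio. In the 134 unigenes above 500 FPKM in root and above 0 in leaf or stem, the median log2 ratio of leaf to stem was -0.23, and in the 1,157 between 50 and 100 FPKM it was -0.093. Of the 134, 0 reached 8-fold in favour of leaf and 12 in favour of stem. In the bin of 50 to 100 FPKM in root, 9 reached 8-fold in favour of leaf and 116 in favour of stem. The long stem tail was present with both ways of binning. The root bins leave out the unigenes listed at 0 in root. Without the added 1, over unigenes above 0 in leaf and stem, scarce unigenes of the root bins leaned to leaf. The median was 0.30 up to 0.5 FPKM in root and 0.048 between 2 and 5. It was below 0 in every bin from 5 FPKM upward, and -0.23 above 500.

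The 5 most abundant unigenes of leaf were also abundant in stem. The highest was Unigene13045, with 4,537 FPKM in leaf and 1,470 in stem, where it ranked 9th. CL7081.Contig1 followed with 3,889 FPKM in leaf and 1,421 in stem, Unigene20193 with 3,058 and 601, and CL7271.Contig1 with 3,048 and 515. The fifth, CL48.Contig9, had 2,854 FPKM in leaf and 430 in stem, but 20,278 in root. The first of these 5 had 1,014 FPKM in root, and the next 3 had 67.3, 26.7 and 7.97. All 5 were between 2.74-fold and 6.64-fold above their stem values, and so 0 of the 5 reached 8-fold.

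The 5 leading unigenes of stem were not all abundant in leaf. CL1697.Contig3 had 2,839 FPKM in stem and 1,260 in leaf, and CL6678.Contig3 had 2,492 and 1,143, a little over 2-fold. The next 3 were at least 30.6-fold higher in stem than in leaf. Unigene13328 had 1,837 FPKM in stem, 5.76 in leaf and 2.90 in root, CL5199.Contig3 had 1,635 in stem, 2.31 in leaf and 4.76 in root, and CL11277.Contig1 had 1,569 in stem, 51.2 in leaf and 270 in root. In leaf, Unigene13328 ranked 16,317th and CL5199.Contig3 ranked 27,263rd.

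Of the 10 most abundant unigenes in each tissue 3 were the same, of the 100 most abundant 37, and of the 1,000 most abundant 570. The corresponding overlaps of leaf with root were 2, 38 and 519, and those of stem with root 2, 48 and 635. The top 10 held 3.94% of the FPKM sum in leaf and 2.44% in stem, and the top 100 held 14.6% and 12.3%. Among the 100 most abundant in leaf, 6 exceeded their stem value 8-fold or more, and the lowest stem value was 7.96 FPKM. Among the 100 most abundant in stem, 17 exceeded their leaf value by as much, and the lowest leaf value was 0.37 FPKM. Within the top 1,000 these numbers were 43 for leaf and 144 for stem. At 2-fold the top 100 of each tissue were alike. Of those of leaf 49 were at least 2-fold above their stem value, and of those of stem 50 above their leaf value. The median fold over the other tissue was 1.99 for leaf and 2.03 for stem.

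**Figure D2:**
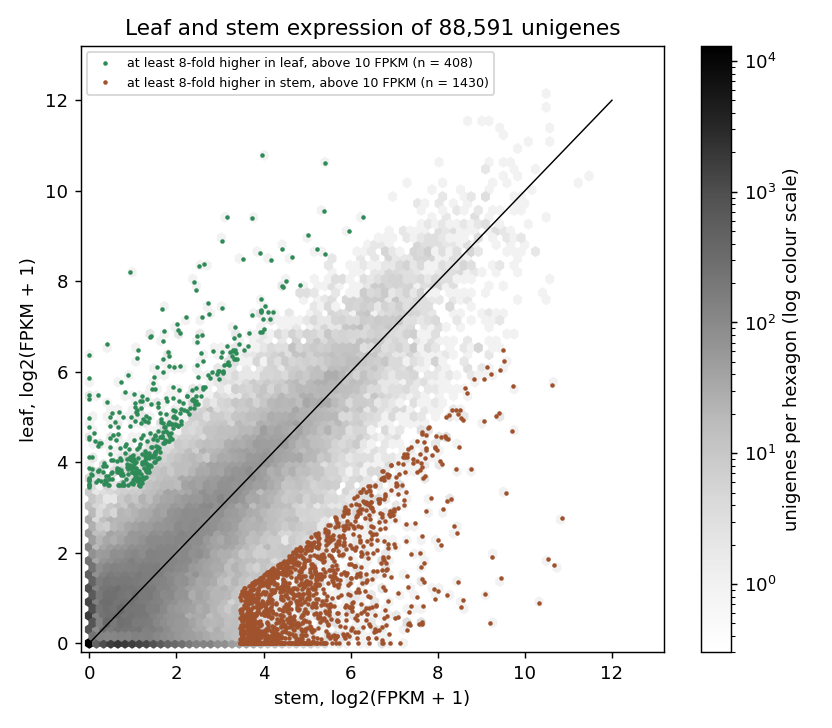
Leaf against stem expression of every unigene as log2(FPKM + 1), with grey hexagons for the number of unigenes and the diagonal for equal values. The 408 unigenes with a large fold toward leaf (green) and the 1430 toward stem (brown), 8-fold or more with over 10 FPKM in the higher tissue, lie on opposite sides, and the brown points extend further from the diagonal.

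Large folds were then counted as at least 8-fold with more than 10 FPKM in the higher tissue. Leaf was the higher tissue for 408 unigenes and stem for 1,430, which are 2.83% and 9.92% of the 14,421 unigenes above 10 FPKM in either tissue. Stem thus had 3.50 times as many. When the contigs of a cluster were counted once, a choice made after seeing the data, the numbers were 355 and 1,195, or 3.37 times as many. Requiring more than 1 FPKM in the lower tissue left 292 higher in leaf and 715 higher in stem, and taking the fold after adding 1 to each FPKM left 254 and 1,158. The higher tissue's level was similar in both sets, with a median of 24.5 FPKM in the leaf set and 26.5 in the stem set, whereas the FPKM of the lower tissue had a median of 1.61 in the leaf set and 1.005 in the stem set. The leaf set carried 3.68% of the leaf FPKM sum, and the stem set 11.9% of the stem sum.

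The imbalance widened with the fold. Among unigenes above 10 FPKM in the higher tissue and above 0 in the lower, 3,218 reached 2-fold toward leaf and 3,473 toward stem. At 4-fold there were 1,111 and 2,017, at 16-fold 157 and 772 and at 64-fold 32 and 305. The widening between 16-fold and 64-fold rested on unigenes at or below 1 FPKM in the lower tissue. Without those unigenes, the folds still reached 121-fold toward leaf and 708-fold toward stem, so past 121-fold only stem remained. With the lower tissue above 1 FPKM, leaf led at 2-fold, with 3,120 unigenes against 2,940, and stem led at 8-fold with 715 against 292, at 16-fold with 271 against 77 and at 64-fold with 30 against 9. A further 18 of the 408 were listed at 0 in stem, and 182 of the 1,430 at 0 in leaf, and no fold is given for them. The highest of these were CL2361.Contig4, with 81.5 FPKM in leaf, and Unigene20680, with 57.3 in leaf. In the other direction they were CL441.Contig2, with 140 FPKM in stem and listed at 0 in root as well, and CL2406.Contig3, with 119 in stem and 16.3 in root.

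**Figure D3:**
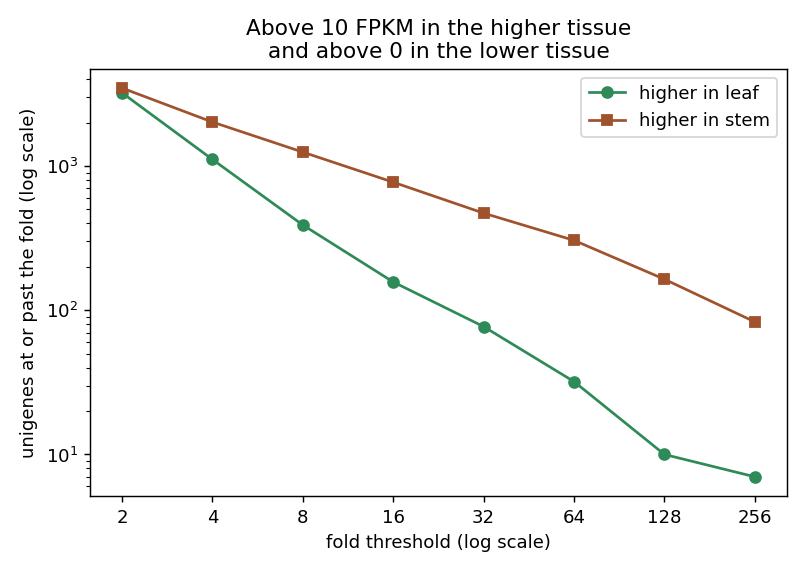
Number of unigenes (log scale) at or past each fold threshold (log scale), for unigenes above 10 FPKM in the higher tissue and above 0 in the lower. The lines start close together, at 3218 for leaf and 3473 for stem at 2-fold, and are 32 and 305 at 64-fold.

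Where the lower tissue was above 1 FPKM, the largest folds were those of CL212.Contig2, with 1,758 FPKM in leaf and 14.5 in stem, 121-fold, and of CL6714.Contig5, with 684 and 7.96 FPKM, 85.9-fold. Toward stem they were those of CL5199.Contig3, 708-fold, and CL12752.Contig1, with 1,475 FPKM in stem and 2.65 in leaf, 557-fold. The threshold divided a continuous range. On the leaf side Unigene15850, with 21.9 and 2.74 FPKM, lay just inside 8-fold and CL6841.Contig1, with 31.5 and 3.95, just outside. On the stem side Unigene18198, with 104 FPKM in stem and 13.0 in leaf, lay just inside and Unigene534, with 62.6 and 7.83, just outside.

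Root, which the choice of these unigenes did not use, had lower values for the leaf set than for the stem set, by the median and both quartiles. The median root FPKM was 0.68 (quartiles 0.14 and 3.53) in the 408 unigenes higher in leaf and 7.97 (quartiles 2.42 and 26.1) in the 1,430 higher in stem. Root was above 1 FPKM for 173 (42.4%) of the leaf set and for 1,215 (85.0%) of the stem set. Over all 11,143 unigenes above 10 FPKM in leaf this share was 93.0%, and over all 11,540 above 10 FPKM in stem it was 96.1%. Root was above 10 FPKM for 43 and 646 (45.2%), against 57.1% and 62.9% of all unigenes above 10 FPKM in leaf and in stem. For 230 of the 1,430 the root value was the highest of the 3 tissues, and for 9 of the 408. The share over all unigenes above 10 FPKM in leaf or in stem was not computed for this count. No enrichment can therefore be read from it. No test accompanies these shares.

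**Figure D4:**
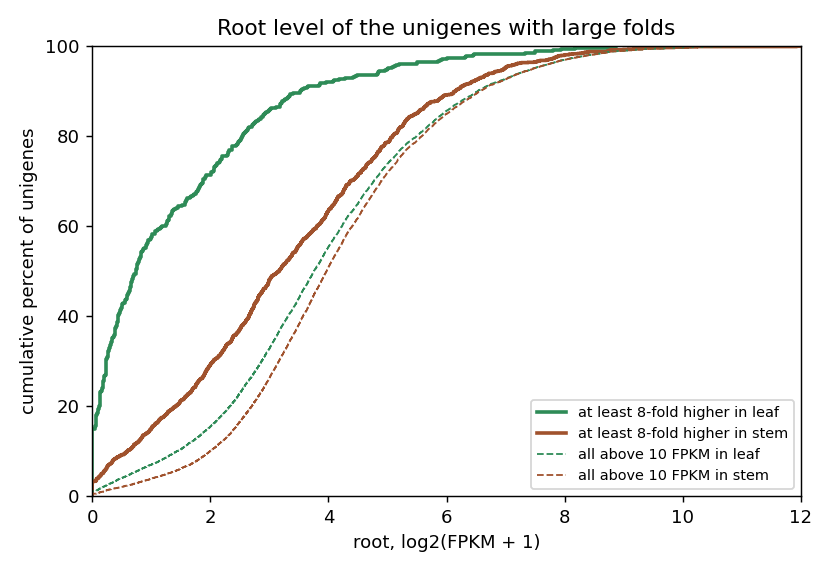
Cumulative percent of unigenes against their root level as log2(FPKM + 1), for the unigenes at least 8-fold higher in leaf or in stem (solid) and for all unigenes above 10 FPKM in leaf or in stem (dashed). The solid green line rises first, with a median of 0.68 FPKM in root, and the solid brown line, with a median of 7.97 FPKM, runs closer to the dashed lines.

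Because RSEM divides fragments between similar contigs, FPKM was also summed over each of the 11,954 clusters with at least 2 contigs in the table. Of the 6,010 clusters with a sum above 10 FPKM in leaf or stem, 84 (1.4%) had a leaf sum of 8 times the stem sum or more, and 415 (6.91%) the reverse. The median log2 ratio of these sums was 0.0061, and their interquartile range was 1.45, against 1.85 for the 8,387 contigs above 10 FPKM of the same kind of cluster and 1.74 for the 5,976 singletons. Summing thus narrowed the distribution and left fewer large folds in both directions. The share within 2-fold differed little up to 10 contigs, at 61.8% for clusters of 2 contigs, 63.6% for 3 to 5 and 64.3% for 6 to 10. It was 74.7% for the 150 clusters with over 10. Whether the summing itself gave this higher share was not tested.

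In 72 of the 84 clusters higher in leaf and in 349 of the 415 higher in stem, every contig in the table had the higher FPKM in that tissue. The clusters were chosen by sums of these same contigs, so this agreement was partly set by the choice. The share over all clusters is not given. CL5199 summed to 2,922 FPKM in stem and 3.16 in leaf, 925-fold, with contigs of 1,635, 1,278 and 8.88 FPKM in stem. CL12752 summed to 1,484 in stem and 2.65 in leaf, 560-fold. CL2027 reached 308 in stem and 1.40 in leaf, 220-fold, over 8 contigs that were all higher in stem. Toward leaf, CL212 summed to 2,079 FPKM in leaf, 19.3 in stem and 447 in root, 108-fold between leaf and stem. CL6714 summed to 1,258 in leaf and 18.9 in stem, 66.5-fold over 6 contigs, and CL1614 to 589 and 10.8, 54.7-fold over 3 contigs.

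The clusters with the highest sums differed far less. CL7271 led in leaf with 4,640 FPKM, against 1,218 in stem, and CL7081 had 3,890 and 1,421. CL5880, with 34 contigs, was among the highest 3 of both tissues, with 4,345 FPKM in leaf, 3,813 in stem and 5,159 in root. In stem CL1697 led with 5,438 FPKM, against 2,359 in leaf, and CL3367 had 3,559 and 1,448.

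A large fold of a contig did not always extend to its cluster. Of the 210 contigs of such clusters with a large fold toward leaf, 97 (46.2%) belonged to a cluster whose sum was also at least 8-fold higher there, and 26 (12.4%) to a cluster whose sum was less than 2-fold higher in leaf or was higher in stem. Of the 829 contigs at least 8-fold higher in stem, 501 (60.4%) and 97 (11.7%) did so. Each contig is part of the sum it is set against, so the comparison is not independent. At least 50% of the cluster's sum came from the contig itself for 89 (42.4%) of the leaf contigs and 359 (43.3%) of the stem contigs. Contigs of 1 cluster with large folds in opposite directions were found in 4 clusters, and after median-ratio scaling in 2. In CL8894, Contig3 had 26.3 FPKM in leaf and 2.35 in stem and Contig4 had 14.0 and 0.24, while Contig1 had 0.44 in leaf and 24.0 in stem and Contig5 had 0.48 and 10.2. The cluster's sums, 41.5 FPKM in leaf and 39.2 in stem, did not show this difference. In CL7967, Contig2 had 110 FPKM in leaf and 4.54 in stem, and Contig4 was listed at 0 in leaf with 17.6 in stem. In CL140, Contig3 and Contig4 had 38.4 and 49.3 FPKM in leaf and 2.0 and 5.35 in stem, whereas Contig2 had 0.67 in leaf and 10.4 in stem. The fourth was CL2067, with sums of 23.4 and 14.1 FPKM. Whether these contigs are alleles, splice forms or paralogues was not tested.

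The 7 cloned enzymes of terpenoid precursor synthesis stood on both sides. Of these, 3 were higher in leaf and 4 in stem, with a median log2 ratio of -0.37. Of all unigenes with a mean of 10 to 50 FPKM, 52.0% were higher in leaf. A difference of less than 2-fold was seen for 4 of the 7, against 52.2% of the unigenes above 10 FPKM in either tissue. In leaf 0 reached 8-fold and in stem 2, against 2.83% and 9.92% of the unigenes above 10 FPKM. ArHMGR1 (CL11002.Contig1), an HMG-CoA reductase, which catalyses the main regulated step of the mevalonate pathway, had 10.3 FPKM in leaf and 144 in stem, 14.0-fold. ArHMGR2, the other contig of that cluster, had 8.08 in leaf and 10.7 in stem, with 175 in root. ArMVD (Unigene7594), mevalonate diphosphate decarboxylase, which makes isopentenyl diphosphate at the end of that pathway, had 16.2 and 11.8 FPKM. Among the cloned unigenes of the mevalonate branch, then, only ArHMGR1 reached 8-fold. The other enzymes of that branch were not examined here.

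In the MEP branch the first and last cloned enzymes were higher in stem, and the pair between them was higher in leaf. ArDXS (Unigene11038), 1-deoxy-D-xylulose-5-phosphate synthase, which opens the pathway, had 4.16 FPKM in leaf, 71.8 in stem and 2.01 in root, 17.2-fold higher in stem than in leaf. ArDXR (CL1159.Contig3), the reductoisomerase of the next step, had 11.02 FPKM in leaf and 5.75 in stem, 1.92-fold, and the other contigs of its cluster had 9.26 and 4.94 and 2.01 and 1.17. ArHDS (Unigene5791), which acts near the end of the pathway, had 142 FPKM in leaf and 70.6 in stem, 2.01-fold. ArHDR (CL1787.Contig4), the last enzyme, had 23.4 in leaf and 40.3 in stem, 1.72-fold higher in stem, and CL1787.Contig3 had 11.2 and 16.8. The remaining contigs of CL1787 did not exceed 0.50 FPKM in either tissue. The other unigenes of these enzymes were not included here, so these values do not describe the enzymes as a whole.

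**Figure D5:**
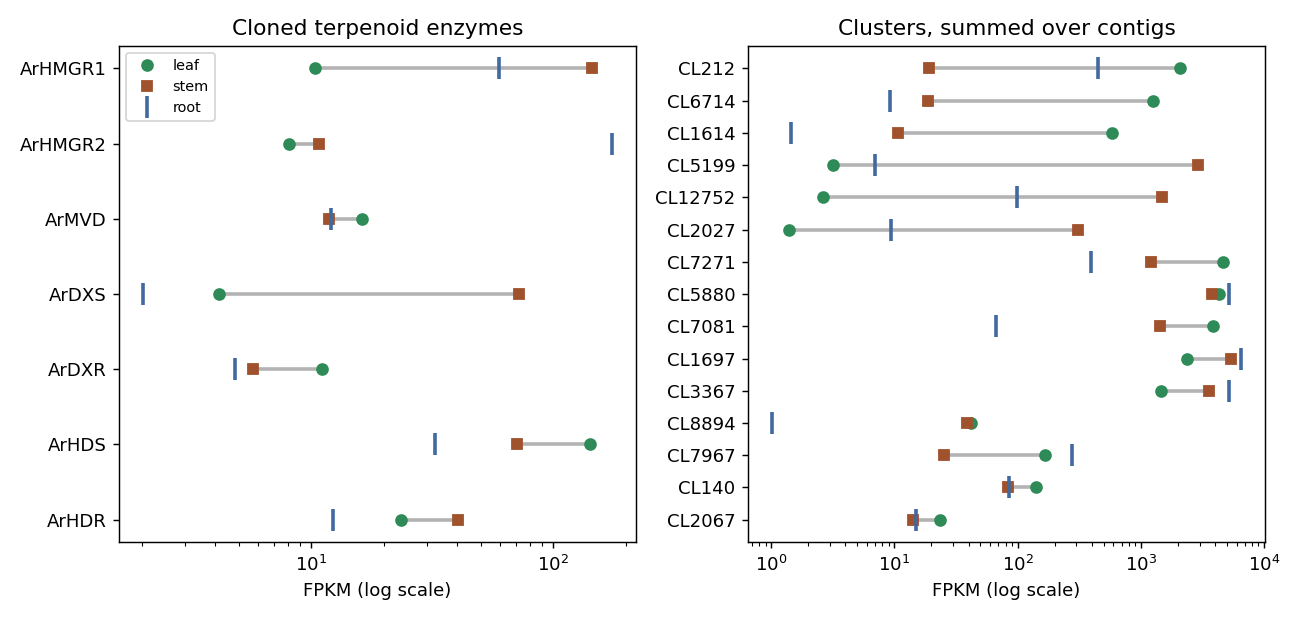
FPKM (log scale) in leaf (circles), stem (squares) and root (bars) of the 7 cloned enzymes on the left and, on the right, of clusters summed over their contigs, 1 library per tissue. ArHMGR1 and ArDXS have the widest gaps between leaf and stem among the enzymes, and CL5199, with 3.16 in leaf and 2922 in stem, among the clusters.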

How the data were processed

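The authors filtered the reads, assembled them de novo with Trinity, reduced the contigs to unigenes with TGICL, and aligned each library against them with Bowtie2 before RSEM estimated the expression. Trimmomatic is named in the submitters' processing notes. The deposited values are FPKM to 2 decimals for leaf, root and stem. Since FPKM is relative to the mapped fragments of a library, abundant unigenes lower all others there. Neither counts nor lengths were used, and the depth behind a value is unknown.

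From the FPKM were computed ratios, ranks, counts past a fold and sums per cluster, in pandas 2.3.3 and numpy 2.4.6 under Python 3.11.15, with intervals from scipy 1.17.1 and figures from matplotlib 3.10.9. The code that counts folds was tested on simulated data, with changes placed only in well expressed unigenes and with assumed lengths and depth. This does not check the counts near the thresholds or at low FPKM. Ratios by level used a pseudocount of 1, which understates the change of low unigenes. Folds used none. No test was possible with 1 library per tissue. The alternatives were TPM (rescaling to a sum of 1,000,000), median-ratio scaling, other minimums, folds and pseudocounts, and bins of root level.

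The comparison, lists and thresholds were chosen with earlier results of these data known. Named unigenes are the 7 cloned ones with their clusters, the 5 most abundant per tissue, the 2 largest folds per direction with the lower tissue above 1 FPKM, the 2 highest listed at 0 in the lower tissue, those nearest to 8-fold, and the 3 clusters of largest fold, of highest sum and with opposed contigs. The fourth cluster with opposed contigs was named after its values were seen.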

Additional observations from a re-analysis of the deposited data

How the results depend on the processing

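The excess of stem over leaf among large folds was kept under the other minimums and a fold of FPKM + 1, while the counts moved. It was also kept under TPM and median-ratio scaling. Their shifts of the log2 ratio, -0.025 and -0.021, were too small to remove it, so they do not test the excess. With a fold of FPKM + 1, the leaf count became 254. A minimum of 5 FPKM gave 753 for leaf and 2,446 for stem, and a minimum of 20 FPKM gave 241 and 891. With the lower tissue above 1 FPKM the stem count became 715. These follow from the construction of the alternatives. TPM gave 513 and 1,816 and median-ratio scaling 353 and 1,309. TPM raised the values of both tissues and median-ratio scaling lowered them, while the minimum stayed the same. These counts therefore reflect mainly a change of minimum. Without the 100 most abundant unigenes of each tissue, a choice made after seeing the data, the counts of large folds were 402 and 1,413. None of the named unigenes changed direction under TPM or median-ratio scaling. Median-ratio scaling shifted the log2 ratio by -0.021 and TPM by -0.025. These shifts are far smaller than any nonzero log2 ratio of the named unigenes, so no direction could have changed. The cluster counts stayed within 1.5 times of 84 and 415 under TPM, median-ratio scaling, inclusion of clusters with 1 contig and use of the most abundant contig. Here too, TPM and median-ratio scaling acted mainly as a change of minimum. Of the clusters with opposed contigs there were 17 at a minimum of 5 FPKM, 21 at 4-fold and 2 after median-ratio scaling, so this number rests on unigenes near the thresholds.

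The median log2 ratio of the lowest bin was -0.85 with a pseudocount of 0.1, -1.49 with 0.01, -0.28 with TPM, -0.19 with median-ratio scaling and -0.050 in bins of root. Bins of root reversed the medians at 50 to 100 FPKM, to -0.093, and above 500 FPKM, to -0.23. The cause was not tested. No paired analysis was possible because each tissue has 1 library. Depth limits what the unigenes below about 1 FPKM can show, where values move in steps and zeros are frequent.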

Other observations

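Beside the comparison of leaf and stem, the 12,884 unigenes listed at 0 in both were above 0 in root. Their median was 1.32 FPKM there and their highest value 110 FPKM, and 127 of them were above 10 FPKM.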
